A study of Mus musculus with 8 samples.

Results

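Among 3923 thymocyte barcodes with at least 1 productive T cell receptor beta (TRB) chain, 245 carried exactly 2, and these 245 cells are described here against the 3678 cells with exactly 1. A chain was counted when the deposited contig list gave it as TRB and productive, meaning an in-frame rearrangement without a stop codon. No barcode had 3 or more such contigs, and 24 of the 3947 receptor barcodes had none. The members were thus chosen on contig counts, so their number and the existence of a second chain are a description and not a result.

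The cells were CD4- CD8- (double-negative, DN) thymocytes of mice, enriched with magnetic beads by removing cells that carried MHC class II, CD11b, CD4, CD8 or the kappa light chain, and then sorted into DN3 (CD44- CD25+) and DN4 (CD44- CD25-). Wild-type (WT) mice were C57BL/6J. Knock-in (KI) mice carried GSK3B with Ser389Ala, an alanine in place of a serine whose phosphorylation inactivates this kinase. Each of the 4 groups (DN3 and DN4 of either genotype) gave 1 receptor (VDJ) library and 1 gene expression library from a 10x Genomics 5' kit, so no group has a replicate and KI and WT are set side by side without a test. The labels do not give age, sex or the number of animals pooled. The question named in the series' title is how this inactivation bears on the diversity of the Tcrb and Tcra repertoires.

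A beta chain is built by joining 1 V, 1 D and 1 J segment of the Trb locus, with bases removed from the segment ends and untemplated bases added at the joints, so that nearly every rearrangement has its own junction (the CDR3). In DN3 thymocytes an in-frame chain pairs with the surrogate pre-T alpha chain (Ptcra), and the resulting pre-receptor signal drives proliferation, passage to DN4 and a halt to further V-to-DJ joining. That halt is the main part of allelic exclusion, through which most T cells keep a single functional beta chain although they have a rearrangeable Trb locus on each homologous chromosome. Cells with a second in-frame rearrangement are known in normal mice as a minority. A barcode with 2 chains can hold a cell with both alleles in frame or a droplet with more than 1 cell, and a contig list can also give 1 chain on more than 1 contig, so each measure below is given for all members and for those whose junctions differ.

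The Trb locus lies on chromosome 6 (GENCODE vM21 annotation of GRCm38, which is mm10). Trbv1 starts it at 40891229 to 40891885. Trbd1 lies at 41533201 to 41533212, followed by the Trbj1 segments and Trbc1 at 41538218 to 41539881. Trbd2 and the Trbj2 segments come next, and Trbc2 is at 41546730 to 41548352. Trbv31 begins at 41557691, beyond Trbc2 and on the opposite strand.

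The CDR3 sequences below are shown because they separate the kinds of pair. First comes, for each library, the pair of distinct junctions with the most unique molecular identifiers (UMIs, counts of distinct captured transcripts) on the second chain. Chains are ordered by UMIs, so the first chain is the more abundant contig. The sequences read 5' to 3' from the conserved cysteine codon to the conserved phenylalanine codon, and capitals mark the stretch between the ends that match the germline V and J segments, which holds the D segment and the untemplated bases.
WT DN3 first chain, TRBV13-1 with TRBJ2-1, 423 UMIs: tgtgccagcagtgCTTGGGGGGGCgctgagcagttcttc
WT DN3 second chain, TRBV20 with TRBJ1-5, 86 UMIs: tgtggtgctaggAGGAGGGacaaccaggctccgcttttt
KI DN3 first chain, TRBV10 with TRBJ2-4, 50 UMIs: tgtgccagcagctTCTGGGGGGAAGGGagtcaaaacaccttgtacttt
KI DN3 second chain, TRBV3 with TRBJ2-3, 46 UMIs: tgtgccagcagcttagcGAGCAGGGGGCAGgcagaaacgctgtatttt
WT DN4 first chain, TRBV1 with TRBJ1-6, 86 UMIs: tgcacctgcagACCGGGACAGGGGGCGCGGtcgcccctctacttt
WT DN4 second chain, TRBV15 with TRBJ2-2, 73 UMIs: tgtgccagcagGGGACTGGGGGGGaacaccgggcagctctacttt
KI DN4 first chain, TRBV13-1 with TRBJ2-5, 76 UMIs: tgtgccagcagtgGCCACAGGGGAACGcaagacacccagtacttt
KI DN4 second chain, TRBV5 with TRBJ1-3, 66 UMIs: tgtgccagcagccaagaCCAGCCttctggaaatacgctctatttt

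All 4 of these cells were in expression cluster 4, the cluster with high Top2a, and none had a productive TRA (T cell receptor alpha) chain. The chains of each pair use different V and J segments. Segment names are those of the contig lists. Of 199 cells with a single TRBV10 chain, 186 showed Trbv4 and 0 showed Trbv10 in the expression library, as given below. Both mouse D segments are G-rich, and most of the capital stretches hold runs of G.

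A second set of sequences is shown because many pairs were not of this kind. In these pairs the chains had the same V, the same J and CDR3 sequences that differed at 1 base, given in capitals. A substitution is written as the base of the first chain, its position counted from 1 at the 5' end of the CDR3, and the base of the second chain.
KI DN3 first chain, TRBV31 with TRBJ2-1, 53 UMIs: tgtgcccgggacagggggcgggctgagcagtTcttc
KI DN3 second chain, T32G, 13 UMIs: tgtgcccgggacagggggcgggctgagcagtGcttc
WT DN3 first chain, TRBV3 with TRBJ2-1, 28 UMIs: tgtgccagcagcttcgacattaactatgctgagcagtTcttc
WT DN3 second chain, T38G, 17 UMIs: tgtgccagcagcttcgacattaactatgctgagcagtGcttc
WT DN3 first chain, TRBV13-1 with TRBJ2-3, 89 UMIs: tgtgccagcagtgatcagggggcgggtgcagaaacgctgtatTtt
WT DN3 second chain, T43A, 65 UMIs: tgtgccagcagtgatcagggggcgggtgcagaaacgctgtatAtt

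The third kind had the same CDR3 on both contigs. The knock-in DN4 pair with the most UMIs on the second contig, TRBV13-1 with TRBJ2-2, carried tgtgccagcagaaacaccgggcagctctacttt on contigs of 506 and 502 bases with 63 and 58 UMIs. This junction had 0 bases between its germline V and J ends.

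The edit distance between the CDR3 nucleotide sequences of a pair (substitutions plus inserted or deleted bases) split the 245 members without an overlap. It was 0 in 63 pairs (25.7%) and 1 in 46 pairs (18.8%), no pair lay between 2 and 7, and 136 pairs (55.5%; exact Clopper-Pearson 95% interval 49 to 61.8%, counting error only) lay between 8 and 27. All 109 pairs at 0 or 1 had the same V and the same J on both contigs, against 2 of the 136 pairs further apart. The 136 pairs are called distinct below; these classes were drawn after the distances were seen. Distinct pairs numbered 20 in wild-type DN3, 22 in knock-in DN3, 32 in wild-type DN4 and 62 in knock-in DN4.

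**Figure D1:**
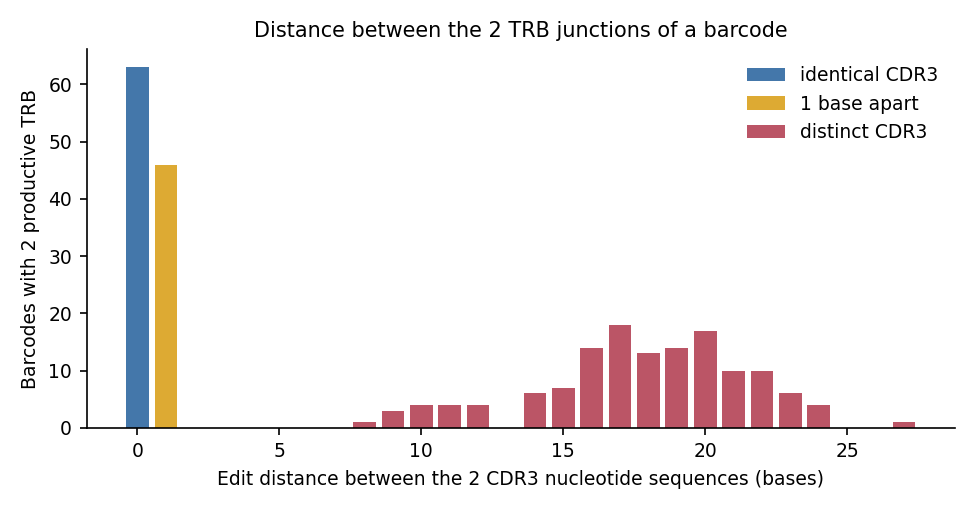
Edit distance in bases between the CDR3 nucleotide sequences of the 2 productive TRB chains of a cell (horizontal axis) against the number of cells (vertical axis), all libraries together, coloured by class. The 63 pairs at 0 and the 46 pairs at 1 stand apart from the 136 pairs at 8 to 27, with no pair between.

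Of the 46 pairs that differed at 1 base, 41 had T in the more abundant and G in the less abundant chain, as in the T32G and T38G pairs above. They numbered 8 in wild-type DN3, 8 in knock-in DN3, 4 in wild-type DN4 and 21 in knock-in DN4. In 21 of the 41 the J segment was TRBJ2-1, and in 17 of the 41 the changed base lay in the last 6 bases of the CDR3. The second chain of these 41 pairs held 1 to 17 UMIs, with a median of 3. Only 2 pairs had T-to-A, and they carried more UMIs on the second chain, 65 in wild-type DN3 and 44 in knock-in DN4. The changes A-to-C, C-to-G and T-to-C occurred in 1 pair each. In the 63 identical pairs, both contigs had the same length in 29, the second was shorter in 29 and longer in 5.

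The number of UMIs on the second chain separated the classes further. In distinct pairs the first chain had a median of 41 UMIs and the second a median of 22, and the median of the second as a share of the first was 56.3%. In identical pairs the medians were 63 and 4 UMIs, and the second was 5.0% of the first. Pairs that differed at 1 base had medians of 58 and 3 UMIs and a share of 5.46%. For comparison, the single chain of cells with 1 chain had a median of 36 UMIs (quartiles 18 and 58).

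A second chain of 2 UMIs or fewer was seen in 24 of 63 identical pairs, 19 of 46 pairs that differed at 1 base and 2 of 136 distinct pairs. At the other end, 114 of the 136 distinct pairs had 10 or more UMIs on the second chain, against 18 of 63 and 6 of 46. The ranges overlapped, since the second chain of a distinct pair held between 2 and 86 UMIs.

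By library, in distinct pairs the median first and second chains held 33 and 22.5 UMIs in wild-type DN3, 40.5 and 20 in knock-in DN3, 47.5 and 22.5 in wild-type DN4, and 43.5 and 22 in knock-in DN4. The single chain of the other cells had medians of 33, 36, 32 and 39 UMIs in the same order. The first chain is the larger of 2 counts by the ordering, so it is not compared with the single chain. Both chains of a distinct pair summed to a median of 64 UMIs.

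**Figure D2:**
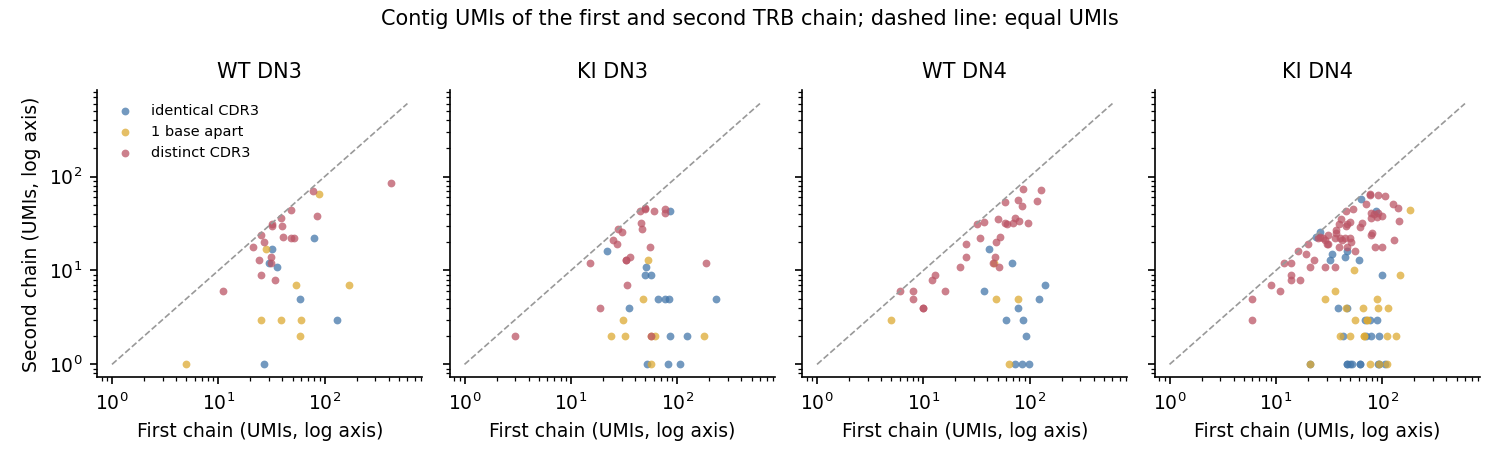
UMIs of the more abundant chain (horizontal, log axis) and of the less abundant chain (vertical, log axis) for each of the 245 cells, 1 panel a library, coloured by how far apart the CDR3 sequences are; the dashed line marks equal UMIs. Distinct pairs centre near 41 and 22 UMIs, and most other pairs lie at a few UMIs on the second chain.

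By library, 36 of 608 barcodes with 1 or 2 productive TRB chains had 2 in wild-type DN3 (5.92%; exact 95% interval 4.18 to 8.10%), 46 of 751 in knock-in DN3 (6.13%; 4.52 to 8.09%), 49 of 917 in wild-type DN4 (5.34%; 3.98 to 7.0%) and 114 of 1647 in knock-in DN4 (6.92%; 5.74 to 8.26%). Counting only distinct pairs, the shares were 3.29% (2.02 to 5.03%), 2.93% (1.84 to 4.40%), 3.49% (2.40 to 4.89%) and 3.76% (2.90 to 4.80%) in the same order. All 4 intervals overlap in either count, so a difference between KI and WT or between DN3 and DN4 was not detectable at this depth. The intervals cover counting error only, and the spread between animals is unknown with 1 library per group.

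**Figure D3:**
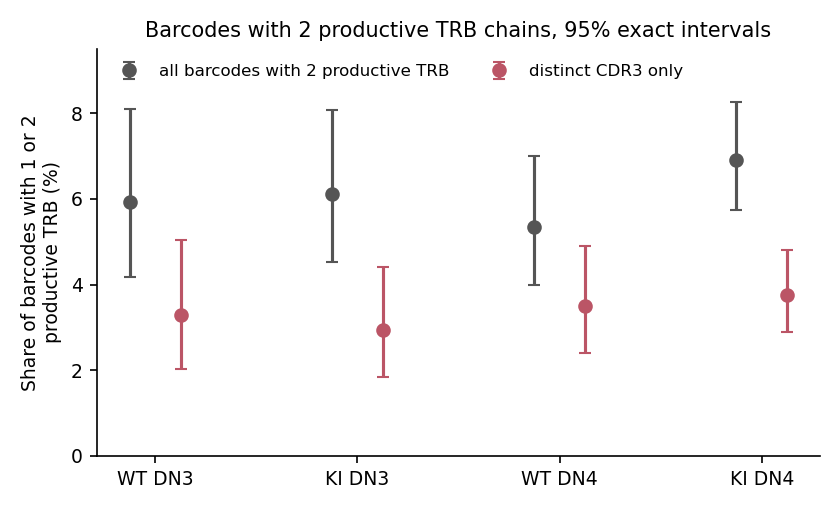
Percent of barcodes with 1 or 2 productive TRB chains that had 2 (vertical axis), by library, for all members and for distinct pairs only; points are the shares and bars the exact 95% intervals of counting error. The distinct pairs lie between 2.93% and 3.76%, with overlapping intervals.

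The share was higher in barcodes with more TRB UMIs, a quantity to which the second chain itself adds. Distinct pairs made up 1.08% of 1017 barcodes with under 20 TRB UMIs, 2.39% of 1507 with 20 to 49, 4.79% of 1106 with 50 to 99 and 12.3% of 293 with 100 or more. For pairs identical or 1 base apart the shares were 0.197%, 1.66%, 5.42% and 7.51%. The expression library, sequenced from the same droplets, gives a depth that the second chain does not set. From the lowest through the middle to the highest of 3 equal bins of cells by expression UMIs within a library, distinct pairs made up 2.66%, 2.90% and 4.78%, and the other pairs 0.783%, 3.06% and 4.70%. No test was made on these bins.

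The authors' coarse clusters of the expression data give the members' place in development. The labels of the sort held in the RNA: Il2ra, which encodes the CD25 used to sort DN3, stood at 209 and 218 CPM (a gene's UMIs as a share of all UMIs of the summed cells, on the usual CPM scale) in the distinct cells of wild-type DN3 and knock-in DN3, against 3.20 and 3.80 CPM in those of wild-type DN4 and knock-in DN4. Cd4, whose product the sort removed, was at 0 UMIs in the distinct cells of both DN3 libraries. It had 4 UMIs (6.39 CPM) in those of wild-type DN4 and 1 UMI (0.951 CPM) in those of knock-in DN4. In cells with 1 chain Cd4 was at 0.495 and 0.196 CPM in wild-type DN3 and knock-in DN3. These levels are near the floor, so the zeros tell little. Cd8b1, which begins to be transcribed after beta-selection, was at 2.82, 17.0, 161 and 183 CPM in wild-type DN3, knock-in DN3, wild-type DN4 and knock-in DN4. The value in wild-type DN3 is 1 UMI. In cells with 1 chain Cd8b1 was at 10.9, 9.90, 197 and 156 CPM in the same order.

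Clusters 3 and 4, with Cd8b1 at 173 and 101 CPM and, in cluster 4, Top2a at 618 CPM, held most members: 170 of their 2239 barcodes with 1 or 2 chains (7.59%) had 2. Clusters 0 and 1, with Il2ra at 639 and 660 CPM, had 10 of 275 (3.64%), and cluster 6, with Il2ra at 369 CPM, had 20 of 382 (5.24%). Cluster 2, in which Trdc reached 526 CPM, had 9 of 293 (3.07%). Cluster 5, with Il2rb at 555 CPM and Trac at 294 CPM, had 25 of 586 (4.27%). The small cluster 7, with Top2a at 850 CPM, had 6 of 33 (18.2%), cluster 8 had 0 of 12 and cluster 9 had 1 of 10.

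Much of this spread lay in the pairs that were not distinct. Pairs identical or 1 base apart made up 3.84% of clusters 3 and 4, 0.727% of clusters 0 and 1, 1.37% of cluster 2, 2.09% of cluster 6 and 0.683% of cluster 5. Distinct pairs made up 3.75%, 2.91%, 1.71%, 3.14% and 3.58% of the same clusters. Depth moved with the clusters: cells of clusters 3 and 4 had medians of 18270 and 22993 expression UMIs, against 5531 in clusters 0 and 1. Its part in the shares was not tested beyond the values given by depth above.

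The segments of distinct pairs were varied. A V segment was shared by both chains in 9 of 136 pairs and a J segment in 11. Both J segments came from the TRBJ1 cluster in 26 pairs (19.1%), both from TRBJ2 in 38 (27.9%), and 1 from each in 72 (52.9%). TRBJ2 was used by 57.0% of single chains, by 59.6% of the first and by 49.3% of the second chains of distinct pairs. TRBV31, which joins by inversion, was on at least 1 chain of 8 pairs (5.88%), and TRBV1 on at least 1 chain of 13.

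The V segments most used by single chains were also used by distinct pairs. TRBV12-1 made up 9.41% of single chains and 9.56% of the chains of distinct pairs. The annotation that names TRBV12-2 and TRBV13-2 together made up 8.29% and 9.56%, and TRBV13-1 made up 6.77% and 6.25%. TRBV5 made up 8.21% and 4.04%, TRBV3 6.28% and 4.41%, and TRBV16 4.35% and 6.62%. TRBV15, at 5.38% and 9.19%, and TRBV29, at 3.18% and 6.25%, were further apart than TRBV16. So was TRBV12-2, at 5.30% and 2.21%. TRBV15, TRBV29 and TRBV12-2 are named after their values were seen. TRBV3 was at 9.80% among the second chains of all members, the class that includes repeats of the first chain. No test was made on segment use.

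Junctions of distinct pairs and of single chains had close medians. The CDR3 had a median of 42 bases in both. The stretch between the germline ends had a median of 10 bases in single chains, 10 in the first and 10.5 in the second chains of distinct pairs, with ranges of 2 to 28 and 0 to 19 bases. No CDR3 of a first chain was found in another barcode, 4 of the second chains occurred in another barcode of their own library, and 1 occurred in another library. Among single chains, 66 and 8 of 3678 did. No pair of junctions occurred in more than 1 barcode.

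The expression libraries give a second reading of the same chains, since 5' reads cover the V segment. Both libraries come from the complementary DNA of the same droplets, so this checks the contigs and not the number of cells in a droplet. In 123 distinct pairs with different V genes that could be looked up, at least 1 expression UMI of the V gene was seen for the first chain in 116 (94.3%), for the second in 113 (91.9%; exact 95% interval 85.6 to 96.0%) and for both in 107 (87.0%). The V gene of the second chain was seen in 17 of 18 cells of wild-type DN3, 16 of 18 of knock-in DN3, 30 of 32 of wild-type DN4 and 50 of 55 of knock-in DN4. The same V genes were seen in 6.12% of cells with 1 chain of another V, and cells with 1 chain showed their own V in 93.0%. Cells with distinct pairs were deeper, at a median of 18574 against 14686 expression UMIs. Median UMIs of the V gene were 30 for the first and 17 for the second chain, an order like that of the contig UMIs.

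Most of the misses lay in 1 annotation, TRBV10. GENCODE vM21 lists Trbv10 as a pseudogene and Trbv4 as a V gene. Of 199 cells with a single TRBV10 chain, 0 showed a UMI of Trbv10 and 186 (93.5%) showed Trbv4. With TRBV10 looked up as Trbv4, chosen after these values were seen, the V gene was found for 121 first chains (98.4%), 120 second chains (97.6%) and both in 118 of the 123 cells, against 6.19% of cells with 1 chain of another V. For 20 further annotations, 3096 of 3096 cells with a single chain showed their V gene, also those with 2 contig UMIs or fewer (14 of 14). TRBV5 was seen in 82.3% of the cells that carried it. All 301 cells with a single chain of the joint TRBV12-2 and TRBV13-2 annotation showed Trbv13-2.

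The constant region gives a partial reading too, because TRBJ1 segments are mostly spliced to Trbc1, the next constant gene, and TRBJ2 segments to Trbc2. Trbc1 had at least 1 UMI in 87.9% of 1543 cells with a single TRBJ1 chain and in 48.5% of 2046 cells with a single TRBJ2 chain. In distinct pairs it was seen in 23 of 25 cells with TRBJ1 on both chains (92.0%), 58 of 70 with 1 of each (82.9%) and 13 of 37 with TRBJ2 on both (35.1%). Cells with 1 chain of each kind thus stood near those with TRBJ1 chains. Trbc2 was seen in 88.0% to 100% of all 3 kinds and separated nothing. The contig lists name TRBC1 on 1749 of the TRBJ1 chains and leave the constant region blank on the other 10 and on all 2409 TRBJ2 chains.

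A cell has 2 Trb alleles, so barcodes with 3 or more different V-J combinations among their TRB contigs, productive or not, were counted on their own. Such barcodes made up 22 of 136 distinct pairs (16.2%), with 5 of 20 in wild-type DN3, 4 of 22 in knock-in DN3, 5 of 32 in wild-type DN4 and 8 of 62 in knock-in DN4. Among cells with 1 productive chain they made up 24 of 3678 (0.653%), and 791 of the 3678 (21.5%) carried a second combination. The rule itself gives a distinct pair its second combination, so these shares are set side by side without a test. Combinations were told apart by their V and J names, and whether each lay on its own allele was not tested. A nonproductive contig of another V-J combination was present in 18 of 63 identical pairs and in 20 of 46 pairs that differed at 1 base. A doublet caller on the expression data, Scrublet, marked 16 of 132 distinct cells (12.1%), 1 of 63 identical pairs, 1 of 46 pairs that differed at 1 base and 37 of 3589 cells with 1 chain (1.03%). All 16 lay in DN4, with 5 of 32 in wild-type DN4 and 11 of 60 in knock-in DN4. In the DN3 libraries the caller marked 9 of 6183 cells (0.146%), too few to be read there, and it does not see pairs of like cells.

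The alpha chain, rearranged after beta-selection, was counted next. At least 1 productive TRA chain was present in 15 of 32 distinct cells of wild-type DN4 (46.9%; exact 95% interval 29.1 to 65.3%), against 33.5% of cells with 1 TRB chain (30.4 to 36.8%). In knock-in DN4 it was present in 18 of 62 (29.0%; 18.2 to 41.9%), against 21.4% (19.4 to 23.5%). The intervals overlap in both. In DN3, before most Tra rearrangement, the counts were 0 of 20 cells (which allows up to 15% at 3 counts and 16.8% by the exact interval) and 1 of 22. Exactly 2 productive alpha chains were present in 2 of the 136 distinct cells and in 65 of 3678 cells with 1 TRB chain (1.77%).

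Cells with 2 chains had a higher median depth in the expression library than cells with 1. The matrix held 241 of the 245. Their median expression UMIs against those of cells with 1 chain were 17965 and 12565 in wild-type DN3, 20311 and 14449 in knock-in DN3, 20709 and 12153 in wild-type DN4, and 19192 and 16279 in knock-in DN4. The difference of log2 medians was 0.50 ± 0.22 (SD, n = 4 libraries), or 1.42-fold, positive in 4 of 4 libraries, with an exact two-sided permutation p of 0.13, the smallest that 4 libraries allow. Pairs identical or 1 base apart were further up, at 0.62 ± 0.25.

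Distinct cells had medians of 15585, 17135, 21424 and 18503 in the same order, a log2 difference of 0.39 ± 0.29 (SD, n = 4). When cells with 1 chain were weighted to the cluster make-up of the members, the difference was 0.17 ± 0.05 for all members. For distinct pairs, weighted likewise, it was 0.24 ± 0.18, from 0.06 in wild-type DN3 to 0.46 in knock-in DN3. For all members without barcodes that held more than 2 TRB contigs of any kind, which removed 208 of 245, the mean difference was -0.02, from 0.27 in wild-type DN3, 0.13 in knock-in DN3 (2 cells with 2 chains), 0.35 in wild-type DN4 and -0.85 in knock-in DN4. Cells with 1 chain were filtered in the same way, which removed 2065 of 3678 barcodes.

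**Figure D4:**
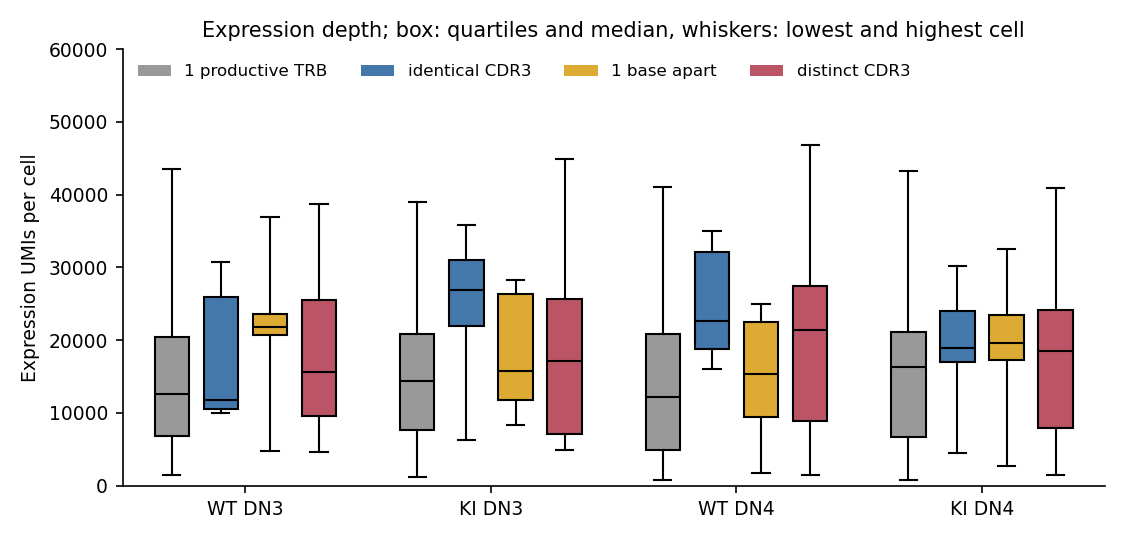
Expression UMIs per cell (vertical axis) for cells with 1 productive TRB chain and for the identical, 1-base and distinct pairs, in each library; boxes give quartiles and median, whiskers the lowest and highest cell. The medians of distinct cells, 15585 to 21424, lie above those of cells with 1 chain, 12153 to 16279, in all 4 libraries.

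Gene expression was compared over the 4 libraries, with the counts of the cells with 2 chains and of those with 1 chain summed in each and the library as a block. Of 9813 genes tested, 67 (0.683%) passed an adjusted p of 0.05 in edgeR's quasi-likelihood test with Benjamini-Hochberg adjustment, 46 higher and 21 lower in cells with 2 chains. Without the library as a block 0 passed, with 237 at an unadjusted p under 0.05, and DESeq2 called 26. For distinct pairs alone 14 genes (0.144%) passed, 8 higher and 6 lower. Of these, 10 were Trbv genes, as were 8 of the 67. A Trbv gene's sum follows the segments that a few cells carry and is not independent of the rule, so these genes are given as a description.

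The highest of the 67 was Trbv17, at 64.2 against 37.8 CPM in wild-type DN3, 179 against 46.0 in knock-in DN3, 140 against 101 in wild-type DN4 and 175 against 57.7 in knock-in DN4. Its log2 difference was 1.28, followed by Trbv3 at 1.27, Trbv16 at 1.18 and Trbv15 at 1.04, while Trbv23 was at -2.30. In distinct pairs Trbv17 was at 1.33, Trbv3 at 0.35, Trbv16 at 0.80, Trbv15 at 1.5 and Trbv23 at -1.58. Trbv12-2 was at 0.47 over all members and at -0.88 in distinct pairs. The segment TRBV12-2 made up 6.12% of the second chains of all members and 2.21% of the chains of distinct pairs. Among single chains it made up 5.30%.

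The other 8 of the 12 highest genes were Arhgef39, Hmmr, a spindle protein, Sgo1, which guards sister chromatid cohesion, Cenpe and Kif23, mitotic kinesins, Hist2h2bb, a histone gene, Ube2c, which serves the anaphase-promoting complex, and Esco2, which sets cohesion in S phase. Hmmr stood at 34.3 against 26.4, 62.5 against 39.3, 51.7 against 34.9 and 75.1 against 42.6 CPM (wild-type DN3, knock-in DN3, wild-type DN4, knock-in DN4), a log2 difference of 0.68 ± 0.11 (SE; edgeR adjusted p = 8.3e-05). Ube2c differed by 0.49 ± 0.06 (edgeR adjusted p = 7.2e-07), higher in 4 of 4 libraries. Arhgef39 differed by 0.85, Sgo1 by 0.60, Cenpe by 0.56, Hist2h2bb by 0.52, Kif23 by 0.52 and Esco2 by 0.47. None of these 8 passed in distinct pairs, where Arhgef39 was at 0.65, Hmmr at 0.43, Sgo1 at 0.43, Cenpe at 0.12, Hist2h2bb at 0.66, Kif23 at 0.50, Ube2c at -0.03 and Esco2 at 0.37. With cells weighted by cluster Ube2c alone of the 8 passed, at 0.24, and Arhgef39 was at 0.61, Hmmr at 0.43, Sgo1 at 0.37, Cenpe at 0.29, Hist2h2bb at 0.33, Kif23 at 0.33 and Esco2 at 0.17.

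The list of 10 cycling genes had 6 called higher and none lower: Mki67 at 0.43, Cdk1 at 0.42, Aurkb at 0.39, Top2a at 0.31, Birc5 at 0.26 and Ube2c. Over all 9813 genes tested, 46 were called higher and 21 lower. The median of the list was 0.36, against 0.00 over all genes tested. Plk1 and Ccnb1, each at 0.36, had edgeR adjusted p of 0.053 and 0.058, and Hist1h1b and Pcna, at 0.08 and 0.05, were not called. For distinct pairs 0 of the 10 passed and the median was 0.01. Over all genes tested 0.144% passed there, so a count of 0 in 10 tells little. Against cells with 1 chain weighted to the clusters of all members, where 14 of 6612 genes (0.212%) passed, only Ube2c of the list passed (edgeR adjusted p = 0.021). The summed level of the list was 1776 against 1541 CPM in wild-type DN3, 2749 against 1938 in knock-in DN3, 2112 against 1804 in wild-type DN4 and 2408 against 2002 in knock-in DN4. In distinct cells it was 1517, 1713, 1765 and 2321 CPM, so only knock-in DN4 stood above its cells with 1 chain.

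The 9 genes of the receptor's constant regions and of the pre-receptor had 4 called lower and none higher, with a median of -0.08. Over all 9813 genes tested, 21 were called lower and 46 higher. The 4 were Trbc2, Trbc1, Ptcra and Cd3g, and in distinct pairs only Trbc2 and Trbc1 were called. Trbc2 was at 364 against 454 CPM in wild-type DN3, 613 against 636 in knock-in DN3, 475 against 608 in wild-type DN4 and 298 against 385 in knock-in DN4. It was lower in all 4 libraries, by a log2 difference of -0.27 ± 0.05 (edgeR adjusted p = 0.00064). For distinct pairs it was at -0.39 ± 0.06 (edgeR adjusted p = 0.00063), and at -0.38 ± 0.06 (edgeR adjusted p = 0.0034) with clusters weighted as well, where 5 of 4814 genes (0.104%) passed. For all members it lost the call without knock-in DN4 (edgeR adjusted p = 0.071).

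Trbc1 was at 163 against 333, 373 against 402, 359 against 398 and 225 against 300 CPM in the same order, at -0.36 ± 0.07 (edgeR adjusted p = 0.0019). In distinct pairs it was at -0.46 ± 0.08 (edgeR adjusted p = 0.0017), and with clusters weighted, over all members, at -0.30 (edgeR adjusted p = 0.0098). Its call was lost without wild-type DN3 (edgeR adjusted p = 0.072), without knock-in DN4 (0.060), and in DESeq2, where the difference was -0.41 (adjusted p = 0.9995). It was also lost in clusters 3 and 4, at -0.31 (edgeR adjusted p = 0.55). In distinct pairs with clusters weighted Trbc1 was at -0.39 and not called (edgeR adjusted p = 0.058). Both constant genes thus made up less of the expression UMIs in cells with 2 chains. They read in part the same transcripts as the contigs on which the cells were chosen. Ptcra, the pre-T alpha chain, differed by -0.38 (edgeR adjusted p = 0.019) and Cd3g, a subunit of the CD3 signalling complex, by -0.14 (edgeR adjusted p = 0.033). In distinct pairs Ptcra was at -0.36 (edgeR adjusted p = 0.95), about the same difference, and Cd3g at -0.06 (edgeR adjusted p = 0.9999).

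None of the 15 genes of the recombinase and allelic exclusion list (Rag1, Rag2, Dntt, Atm, Mdc1, Trp53bp1, Ccnd3, Tcf3, Tcf12, Id3, Egr1, Gfi1, Bcl11b, Runx1 and E2f1) passed, in all members or in distinct pairs. Over all genes tested 0.683% passed in all members and 0.144% in distinct pairs. A count of 0 in 15 is near those shares and tells little about the list. The median of the 15 genes in all members was 0.00. Rag1 and Rag2 cut the segments, Dntt adds the untemplated bases, and Atm is the kinase that answers such breaks. At the lower end of the 67 stood Gm20400, a gene model, at -2.34, Trbv23, given above, S1pr1, the receptor for exit from the thymus, at -1.56, Nfkbiz, an inhibitor-like partner of NF-kappaB, at -1.52, Cd52, a surface protein of mature lymphocytes, at -0.72, and Btg1, which restrains proliferation, at -0.45. With cells weighted by cluster Cd52 and Btg1 turned to 0.01 and 0.04, while Gm20400, S1pr1 and Nfkbiz were not among the genes tested. In distinct pairs Gm20400 passed at -2.44 (edgeR adjusted p = 0.039), while S1pr1 at -0.88, Nfkbiz at -1.52, Cd52 at -0.66 and Btg1 at -0.04 did not. Nfkbiz was at -0.59 in clusters 3 and 4. S1pr1 was at 0 in cells with 2 chains in both DN3 libraries, against 0.366 CPM in wild-type DN3 and 0.678 CPM in knock-in DN3. These DN3 levels are near the floor, so the zeros tell little. In DN4 it was at 5.07 against 18.0 CPM in wild-type DN4 and 3.50 against 8.41 CPM in knock-in DN4.

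**Figure D5:**
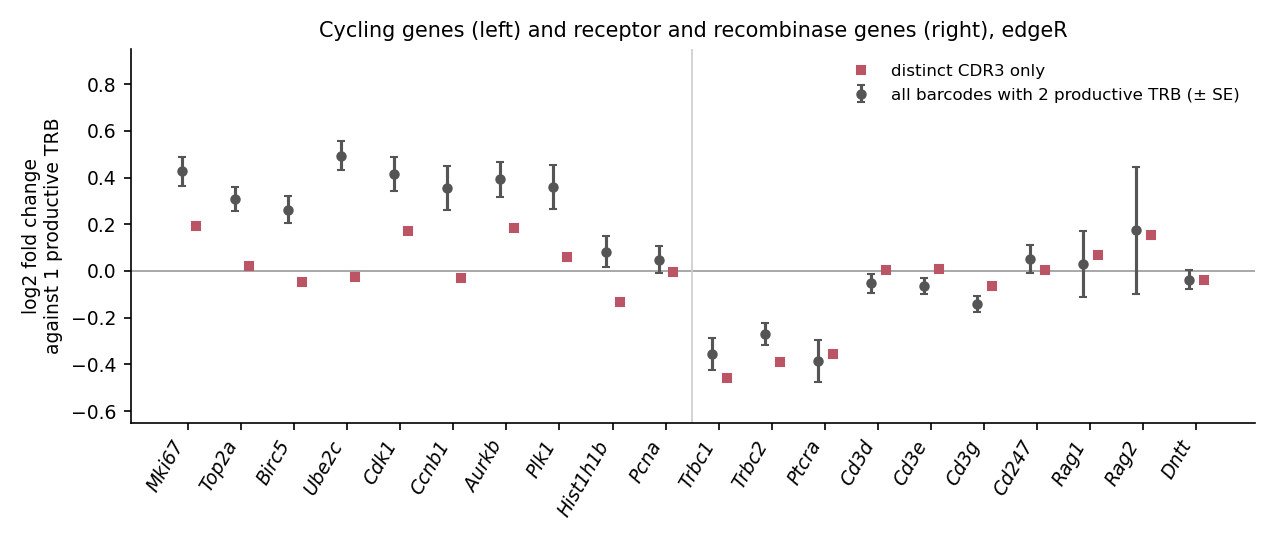
Log2 difference in expression between cells with 2 and cells with 1 productive TRB chain (vertical axis) for cycling genes, left, and receptor and recombinase genes, right; circles are edgeR estimates for all members with their standard errors, squares those for distinct pairs without an error. Ube2c is at 0.49 in all members and at -0.03 in distinct pairs, while Trbc2 is at -0.27 and -0.39.

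Lists of cells outside the T lineage were summed in distinct cells and in cells with 1 chain. The B cell list, with 4 of 7 genes in the matrix, was at 229, 258, 286 and 305 CPM in distinct cells and at 257, 253, 369 and 345 CPM in cells with 1 chain (wild-type DN3, knock-in DN3, wild-type DN4, knock-in DN4). Ighm, which lymphoid precursors transcribe without a rearranged heavy chain, gave 198 to 295 CPM of it in distinct cells. Cd79b gave 31.1, 42.5, 12.8 and 8.56 CPM, Cd79a was at 0 UMIs in all 4 libraries and Ebf1 in 3.

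The myeloid and dendritic list, with 9 of 10 genes in the matrix, was at 124, 136, 165 and 117 CPM in distinct cells and at 118, 117, 163 and 140 CPM in cells with 1 chain, in the same order. Cst3 gave 101 to 133 CPM of it and Fcer1g 40.0 and 12.4 CPM in wild-type and knock-in DN4, while Itgam, Csf1r and H2-Aa were at 0 in all 4 libraries. The stromal list, with 3 of 5 genes in the matrix, was at 84.7, 99.3, 54.3 and 48.5 CPM in distinct cells and at 87.8, 89.8, 43.3 and 45.3 CPM in cells with 1 chain. Epcam and Pecam1 had UMIs in all 4 libraries and Col1a1 was at 0 in 3. Hba-a2, the erythroid marker in the matrix, was at 0. The part of such cells in the results was not tested.

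The list of natural killer, innate lymphoid and NKT genes, cells that the DN4 gate could hold, had 2 of 10 members with a UMI in each DN3 library, 6 in wild-type DN4 and 8 in knock-in DN4. Its summed level in distinct cells was 678, 550, 1031 and 948 CPM, of which Gzma, a granzyme, gave 554, 474, 871 and 839 CPM, against 726, 632, 1043 and 845 CPM for the list in cells with 1 chain (in the order of the libraries above). Over all members Gzma was called higher, at 0.27 (edgeR adjusted p = 3.1e-05), the only 1 of 4 members tested. With cells weighted by cluster it was at 0.30 (edgeR adjusted p = 1.9e-07). In distinct pairs no member of the list was called. Over all genes tested 0.683% passed in all members and 0.144% in distinct pairs. Trdc, the constant gene of the delta chain, which DN thymocytes transcribe widely, was at 257, 247, 123 and 126 CPM in distinct cells and at 200, 208, 154 and 133 CPM in cells with 1 chain (wild-type DN3, knock-in DN3, wild-type DN4, knock-in DN4).

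The receptor libraries held 25960 TRB UMIs of productive chains in wild-type DN3, 32784 in knock-in DN3, 38440 in wild-type DN4 and 80223 in knock-in DN4. The joint expression matrix held 10237 cells, between 1477 and 3298 a library, and 15653 genes. Between receptor libraries 5 barcodes were shared, 0 of them members, and between expression libraries 54 of 10182.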

How the data were processed

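The authors deposited, for each of the 4 receptor libraries, a list of filtered contigs with the chain, segments, CDR3, productive flag and UMI count of each, and for the 4 expression libraries 1 joint matrix of raw UMI counts with a table of each cell's library and coarse cluster. Per the submitters' processing notes the tools were Cell Ranger 3.1.0 and 6.0.1 with mm10; which version made which file, and how cells and clusters were chosen, is not given in the sources used here. The clusters are the authors' and were not rebuilt. Per the labels' protocols, libraries were made with a 10x Genomics 5' kit.

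Barcodes were split by their number of productive TRB contigs and joined to the matrix by library and barcode. CDR3 sequences of a pair were compared by edit distance with edlib. Junctions were split by matching their ends to the germline segments of GENCODE vM21. Shares carry exact Clopper-Pearson 95% intervals, which cover counting error only. Depth was compared over the 4 libraries as pairs, with an exact two-sided sign-flip permutation test. For genes, counts were summed per library over cells with 2 and with 1 chain, and fitted with edgeR 4.0.16 (quasi-likelihood test, TMM factors, filterByExpr, library as a block, adjustment by Benjamini-Hochberg over all genes tested). The 2 sums of a library come from the same droplet run, which is the source of the pairing. The libraries differ in genotype and stage, so the 4 pairs replicate the comparison of chains and not the groups. Alternatives were DESeq2 1.42.0, other filters, thresholds on the second chain, subsets of pairs, cluster weighting and leaving out each library. Scrublet in scanpy 1.11.5 marked likely doublets, and no cell was removed for it. The fit was tested on simulated data with 200 changed genes.

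The members and gene lists were chosen with earlier results of these data known. Named genes are up to 12 with the highest and 12 with the lowest log2 difference among those with an adjusted p under 0.05 and the same sign in all 4 libraries, plus the lists; not each is printed. Reads of near-identical Trbv genes, and of Trbc1 and Trbc2, may be split uncertainly by the counting.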

Additional observations from a re-analysis of the deposited data

Results flagged for a closer look

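Among distinct pairs, the difference in share between knock-in and wild-type had opposite signs at the successive stages: -0.36 percentage points in DN3 (2.93% against 3.29%) and 0.27 percentage points in DN4 (3.76% against 3.49%). With 1 library per group the difference between these was not tested, and the exact intervals of the shares overlap. Over all members both differences were positive, at 0.20 percentage points in DN3 and 1.58 percentage points in DN4.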

How the results depend on the processing

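Leaving out barcodes with more than 2 TRB contigs of any kind took the share of cells with 2 chains to 2.55% in wild-type DN3, 1.10% in knock-in DN3, 2.04% in wild-type DN4 and 2.72% in knock-in DN4, and took the mean log2 depth difference to -0.022, with 3 of 4 libraries positive and knock-in DN4 at -0.85. A member holds 2 TRB contigs by the rule, so 1 further contig removes it. The filter removed 84.9% of members and 56.1% of cells with 1 chain, and the fall in share is in part built into it. Counting identical and 1-base pairs as 1 chain gave 3.29%, 2.93%, 3.49% and 3.76%. A second chain of at least 3 UMIs gave 4.39% in knock-in DN3 and 5.46% in knock-in DN4, one of at least 10% of the first gave 3.73% and 4.61%, and leaving out the deepest cells gave 4.17% in knock-in DN3; in the other libraries these 3 settings stayed within the main interval. The V gene of the second chain was found in 100% of wild-type DN3, 100% of wild-type DN4 and 97.6% of all pairs with TRBV10 read as Trbv4. Without barcodes of more than 2 TRB contigs it was found in 100% in both wild-type libraries, in knock-in DN4 and over all 24 pairs, with no pair left in knock-in DN3.

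Of the 67 genes called, the count became 28 with at least 3 UMIs on the second chain, 14 with cluster weighting, 14 in clusters 3 and 4, 14 for distinct pairs, 5 for distinct pairs with weighting and 26 in DESeq2. Leaving out 1 library gave 41 (without knock-in DN4) to 65, with 42 without knock-in DN3. Without the block that pairs the sums of a library (no replicate block), edgeR called 0 genes, with 237 at an unadjusted p under 0.05. Among the genes named by the rule, signs turned for Ube2c in distinct pairs (-0.025) and for Cd52 with weighting (0.013) and in clusters 3 and 4 (0.34). They also turned for Btg1 with weighting (0.036), in clusters 3 and 4 (0.17) and in distinct pairs with weighting (0.25). Over all named genes and settings, single calls were lost in 114 further cases, and in 36 when a library was left out. The causes were not tested, beyond the fewer cells and genes that the subsets hold. Alternatives on distinct pairs, their weighting and TRBV10 were chosen after seeing the data.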
